A study of Mus musculus with 16 samples.

Results

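Tmem119, P2ry12, P2ry13, Gpr34, Siglech, Olfml3, Csf1r and Cx3cr1 are genes that resting microglia of the healthy brain express strongly, and they are often called the homeostatic microglia genes. They were chosen by name, and their probes were found on a whole-genome mouse array through the RefSeq transcript that the array names for each probe: 13 of the 26576 probes with a gene name, and 8 of the 20141 genes. Each gene was described by the probe with the highest mean signal. Siglech, Olfml3, Csf1r and Cx3cr1 had more than 1 probe, and their dimmer probes were read as well.

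Microglia are the resident macrophages of the brain. They settle before birth, survive on signals through the receptor Csf1r, and take up their mature expression under transforming growth factor beta from the surrounding tissue. After injury they approach the damage by sensing extracellular nucleotides through P2ry12, and the genes of the resting state are known to go down in microglia that turn to phagocytosis, while general myeloid genes go up.

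The arrays measured total RNA of the right neocortex rostral from bregma of C57BL/6J mice, after the left cortex with the sensorimotor area had been removed by suction. The right side was the unlesioned side. Neonatal brain hemisuction (NBH) was performed at postnatal day (P) 7 and sampled after 1 week and 4 weeks, at P14 and P35. Adult brain hemisuction (ABH) was performed at 8 to 12 weeks of age and sampled after 1 week and 4 weeks, and the labels give these mice 11 and 15 weeks of age. Animals with no surgery were sampled at P7, P14, P35 and 10 weeks. Each of the 8 groups was 1 RNA pool, made from 4 male animals according to the methods, and every pool was hybridized on a Cy3 chip and again on a Cy5 chip, which gave 16 arrays on 2 chips. NBH at 1 week was compared with the P14 control, NBH at 4 weeks with the P35 control, and both ABH pools with the same 10-week control, so the ABH comparisons share their control and both pools, the one at 4 weeks above all, were older than it.

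The 2 arrays of a pool repeat the labeling and not the animals. No test between groups was possible, and every error below is the SD of the 2 dyes, which holds no spread between mice. A level is the log2 processed signal of the labeled channel relative to the array's 75th percentile. A change is a difference of 2 levels on that scale, taken within each dye and then averaged. A gene was called higher at 1.5-fold or more with both dyes, and lower at 0.75-fold or less with both dyes. Between 60.2% and 72.2% of the probes on an array were well above background, all 13 probes of the 8 genes among them on all 16 arrays. The control pools lay in the first row of each chip and the surgery pools in the second, so that position and surgery cannot be told apart.

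Several pools stood apart in ways that touch these genes. The choroid plexus genes, which mark the tissue that makes cerebrospinal fluid, had a summed level between 1.49 and 2.42 times the 75th percentile in the control pools and 1.79 in ABH at 1 week, but 40.3 in NBH at 1 week, 19.3 in NBH at 4 weeks and 32.7 in ABH at 4 weeks. Xist, which marks female cells, was well above background only in the P35 control, with both dyes, although the methods describe males. The part of either in the values below was not tested. The change of all genes correlated between Cy3 and Cy5 with r = 0.25 across 15105 genes in NBH at 1 week and with r = 0.84 across 15984 genes in ABH at 1 week. At 4 weeks r was 0.47 across 15519 genes in NBH and 0.29 across 15986 genes in ABH. Genes are not independent replicates in these correlations.

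RefSeq promoter windows (build GRCm38.p6, 250 bases before to 50 after the start of the gene) were used for 5 of the 8 genes. Tmem119, Gpr34 and Csf1r were left out. The motif counts below therefore do not cover Gpr34 and Csf1r, which were also called higher after adult surgery. Those of the neighboring purine receptor genes P2ry13 and P2ry12 on chromosome 3 and of Cx3cr1 are shown, the first 2 as a pair of related receptors that lie next to each other and the last as a gene called higher after adult surgery. Capitals mark the PU.1 core GAGGAA and the RUNX motif TGTGGT on either strand, the motifs of factors that myeloid cells are known to depend on.
P2ry13 (chr3:59210833-59211132, minus strand): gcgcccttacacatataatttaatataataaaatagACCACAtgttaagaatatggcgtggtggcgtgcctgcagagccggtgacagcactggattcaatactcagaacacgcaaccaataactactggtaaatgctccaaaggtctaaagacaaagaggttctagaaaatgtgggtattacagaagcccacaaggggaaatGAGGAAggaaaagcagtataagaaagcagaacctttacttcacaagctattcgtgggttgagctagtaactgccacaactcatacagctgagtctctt
P2ry12 (chr3:59262936-59263235, minus strand): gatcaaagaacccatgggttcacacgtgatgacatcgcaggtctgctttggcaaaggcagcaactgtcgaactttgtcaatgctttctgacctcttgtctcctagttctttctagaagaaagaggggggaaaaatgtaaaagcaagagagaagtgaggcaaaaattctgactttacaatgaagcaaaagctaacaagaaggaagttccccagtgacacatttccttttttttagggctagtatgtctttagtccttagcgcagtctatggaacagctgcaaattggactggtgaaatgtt
Cx3cr1 (chr9:120068247-120068546, minus strand): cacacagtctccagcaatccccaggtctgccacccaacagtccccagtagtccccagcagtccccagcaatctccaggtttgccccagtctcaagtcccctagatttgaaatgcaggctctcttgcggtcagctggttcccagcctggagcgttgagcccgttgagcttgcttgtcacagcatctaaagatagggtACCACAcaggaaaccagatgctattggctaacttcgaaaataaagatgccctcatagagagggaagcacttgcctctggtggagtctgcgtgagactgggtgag
The PU.1 core was in 2 of the 5 windows, P2ry13 and Siglech, and in 28.3% of all 32851 windows of the table. The RUNX motif was in 3 of the 5, P2ry13, Siglech and Cx3cr1, against 16.8% of all windows. The E-box CACGTG was in P2ry12 and Siglech, against 7.15% of all windows. The interferon response element and the TATA box TATAAA were in none of the 5, and in 3.44% and 13.6% of all windows. Both strands were searched, no motif holds the letters of another, and the matches are letters in a window only.

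The level of the 8 genes differed with age in the controls. In the control pools the P7 cortex had the lowest level of every one of them, and P14 stood higher. All 7 genes that could be compared were called higher at P14 than at P7, with a median change of 0.96 against -0.05 for all genes, where 10.8% of the genes compared were called higher and 17.7% lower. Siglech could not be compared at its brightest probe, which was saturated on 12 of 16 arrays, and its dimmer probe was 1.73-fold higher at P14. Fewer microglia and less of these transcripts in each microglial cell cannot be told apart in bulk tissue RNA.

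Tmem119, a membrane protein used as a marker of microglia, had the largest difference between P7 and P14 of the 7 genes compared. Its level was -0.20 with Cy3 and -0.19 with Cy5 in the P7 control and 1.60 and 1.59 in the P14 control, a 3.45-fold difference, and then stayed between 1.52 and 1.56 in the means at P35 and 10 weeks. P7 thus stood alone, and the other control pools lay together.
P2ry12, the ADP receptor that guides microglial processes, went from a mean of 0.76 at P7 to 2.14 at P14, which was 2.61-fold higher. It was then called lower at P35, at 1.49, by 0.65 ± 0.13 on the log2 scale, a call that 7.71% of all genes shared. At 10 weeks it was 1.33. P2ry13, a second ADP receptor, followed the same course at -0.93, 0.31, -0.14 and -0.21 in the order of age. Both purine receptors therefore had their control peak at P14.
Cx3cr1, the receptor for the neuronal chemokine fractalkine, had levels of 2.54, 3.38, 2.98 and 2.87 at P7, P14, P35 and 10 weeks. Gpr34, a lysophosphatidylserine receptor, had -0.25, 0.42, 0.15 and 0.03. Csf1r, the receptor for the growth factors Csf1 and Il34, had 3.77, 4.70, 4.61 and 4.42. All 3 were highest at P14, and none of them was called from P14 to P35 or from P35 to 10 weeks.
Olfml3, a secreted olfactomedin-like protein, was the exception. Its brightest probe had 1.62, 2.58, 3.57 and 3.94 at the 4 ages and was called higher again between P14 and P35, by 1.98-fold, where 3.75% of all genes were called higher. Its dimmer probe had 0.04, 0.80, 0.73 and 0.63. The 2 probes of this gene thus gave the same order only from P7 to P14. No gene of the set was called between P35 and 10 weeks, where 5.06% of all genes were called higher and 1.49% lower.

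**Figure D1:**
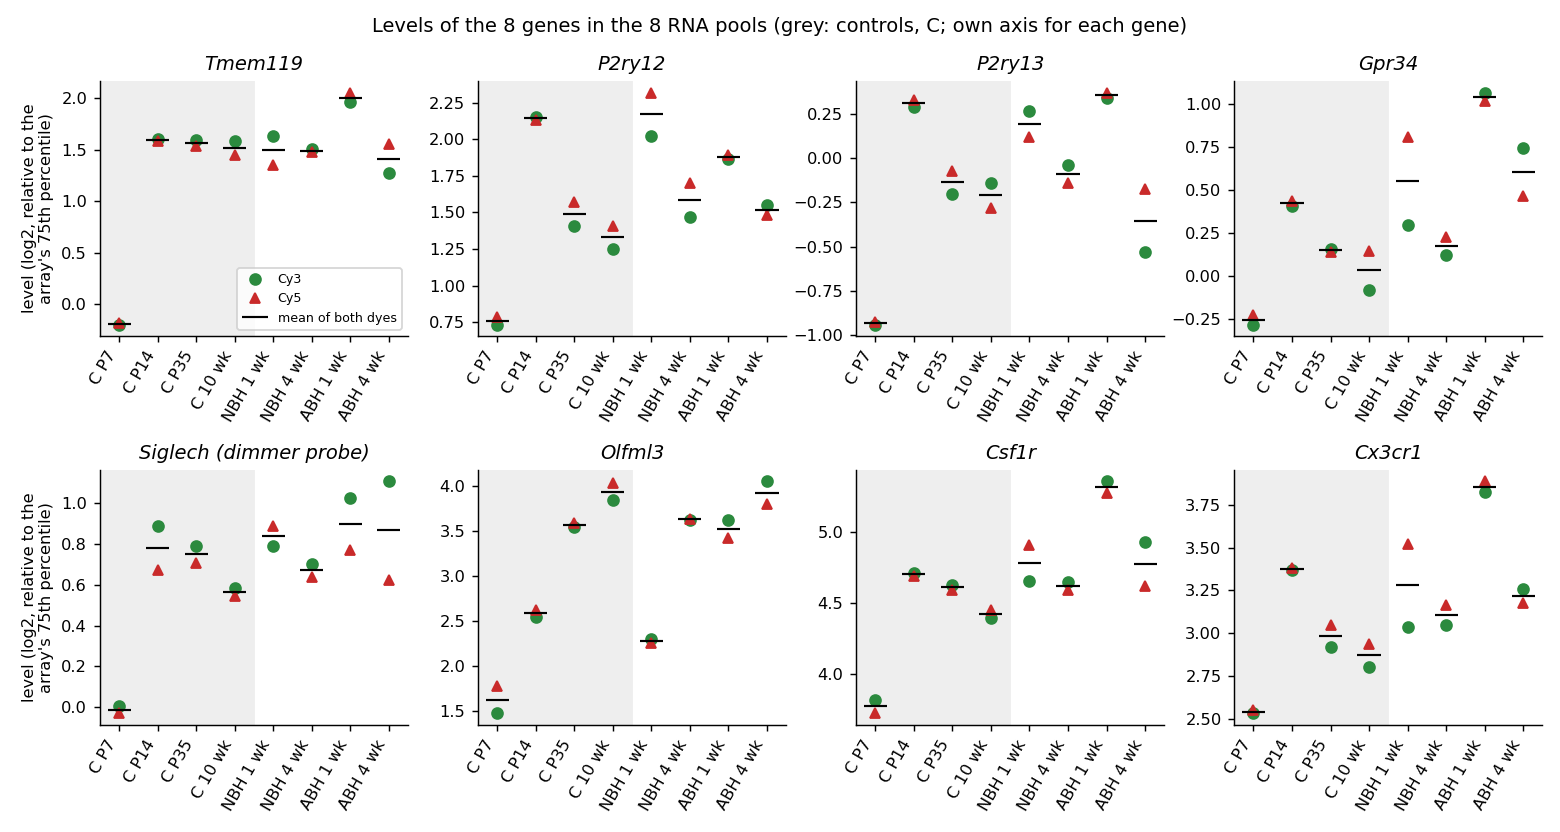
Level of each gene (log2 relative to the 75th percentile of the array, own axis for each gene) in the 8 RNA pools, with Cy3 as circles, Cy5 as triangles and the mean of both dyes as a line; the grey area holds the control pools, and Siglech is shown at its dimmer probe. P7 is lowest in every panel, and ABH at 1 week has the highest mean for Tmem119, P2ry13, Gpr34, Siglech, Csf1r and Cx3cr1.

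After neonatal surgery the 8 genes stood close to the controls of the same age. In NBH at 1 week none of the 7 compared was called higher and none lower, where 0.967% of 15105 genes were called higher and 1.11% lower. The median change was -0.10, with a range from -0.31 to 0.13, against 0.07 for all genes. For 5 of the 7 the dyes gave opposite signs, so that no direction can be given for them. Of all genes only 34.5% were above the control with both dyes and 17.6% below it with both. The median change of the 7 was -0.11 with Cy3 and 0.14 with Cy5.
P2ry12 had 2.02 with Cy3 and 2.32 with Cy5 in NBH at 1 week, and 2.15 and 2.13 in the P14 control. Tmem119 had 1.64 and 1.35 after surgery against 1.60 and 1.59. Cx3cr1 had 3.04 and 3.52 against 3.37 and 3.38. In all 3 the control arrays lay between those of the surgery pool. P2ry13, at -0.12 ± 0.13, and Olfml3, at -0.31 ± 0.08, were below the control with both dyes but short of the limit. The dimmer Olfml3 probe gave -0.17 ± 0.27 with the dyes opposed, and the dimmer Cx3cr1 probe -0.43 ± 0.21, which was also not called.

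In NBH at 4 weeks the values were closer still. None of the 7 was called, where 0.438% of 15519 genes were called higher and 1.98% lower. At the brightest probes the changes ran from -0.07 for Tmem119 to 0.13 for Cx3cr1, with a median of 0.05 against 0.02 for all genes. Cx3cr1 was 3.05 with Cy3 and 3.17 with Cy5 after surgery, and 2.92 and 3.05 in the P35 control. Csf1r was 4.65 and 4.59 against 4.63 and 4.59. The dimmer Cx3cr1 probe, outside the range above, gave -0.22 ± 0.22 and was below the control with both dyes. The P35 control was the pool with Xist above background, and with the 10-week control in its place the median was 0.14 and again none was called.

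After adult surgery the picture at 1 week was different. Cx3cr1, Gpr34 and Csf1r were called higher in ABH at 1 week, 3 of the 7 genes compared, and none was called lower. Of all 15984 genes 6.16% were called higher and 9.27% lower. The median change of the 7 was 0.57, against -0.05 for all genes, and 6 of the 7 were above the control with both dyes, as 30.1% of all genes were. The 7th was Olfml3 at its brightest probe.
Cx3cr1 had a level of 2.80 with Cy3 and 2.94 with Cy5 in the 10-week control, and 3.83 and 3.89 in ABH at 1 week. The difference was 0.99 ± 0.05, or 1.98-fold. Its dimmer probe gave 0.70 ± 0.03 and was called too. The arrays of both pools were well apart.
Gpr34 had -0.08 and 0.15 in the control and 1.06 and 1.02 after surgery, a difference of 1.01 ± 0.19 or 2.01-fold. Csf1r had 4.40 and 4.45 against 5.36 and 5.27, a difference of 0.89 ± 0.10 or 1.86-fold. For both receptors, as for Cx3cr1, every surgery array was above every control array. Of the 2 other Csf1r probes, the dimmest gave 0.85 ± 0.10 and was called, and the second-brightest gave 0.09 ± 0.12. That second-brightest probe had a range of only 0.18 over the 8 pools, and it was the one probe without saturation that did not have its lowest level at P7.
P2ry13 rested just under the limit, at 0.57 ± 0.13 or 1.48-fold, with -0.14 and -0.28 in the control and 0.34 and 0.37 after surgery. P2ry12 had 1.25 and 1.41 against 1.87 and 1.89, a difference of 0.55 ± 0.09 or 1.46-fold. Tmem119 had 1.59 and 1.45 against 1.96 and 2.05, a difference of 0.49 ± 0.16 or 1.40-fold. Each of these 3 passed 1.5-fold with 1 dye and not with the other. The dimmer Siglech probe, for a lectin of microglia and plasmacytoid dendritic cells, gave 0.34 ± 0.15 and was not called. With the array median in place of the 75th percentile, the median change of all genes moved from -0.05 to 0.33, and 6 of the 7 were then called higher, where 12.9% of all genes were called higher and 3.57% lower. With Cy5 alone 5 of the 7 were called higher and 1, Olfml3, lower, against 7.85% and 12.1% of all genes. With Cy3 alone 4 were called higher, where 7.88% of all genes were called higher and 15.8% lower. With limits of 2-fold with both dyes none was called, where 3.23% of all genes were called higher and 1.96% lower.

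**Figure D2:**
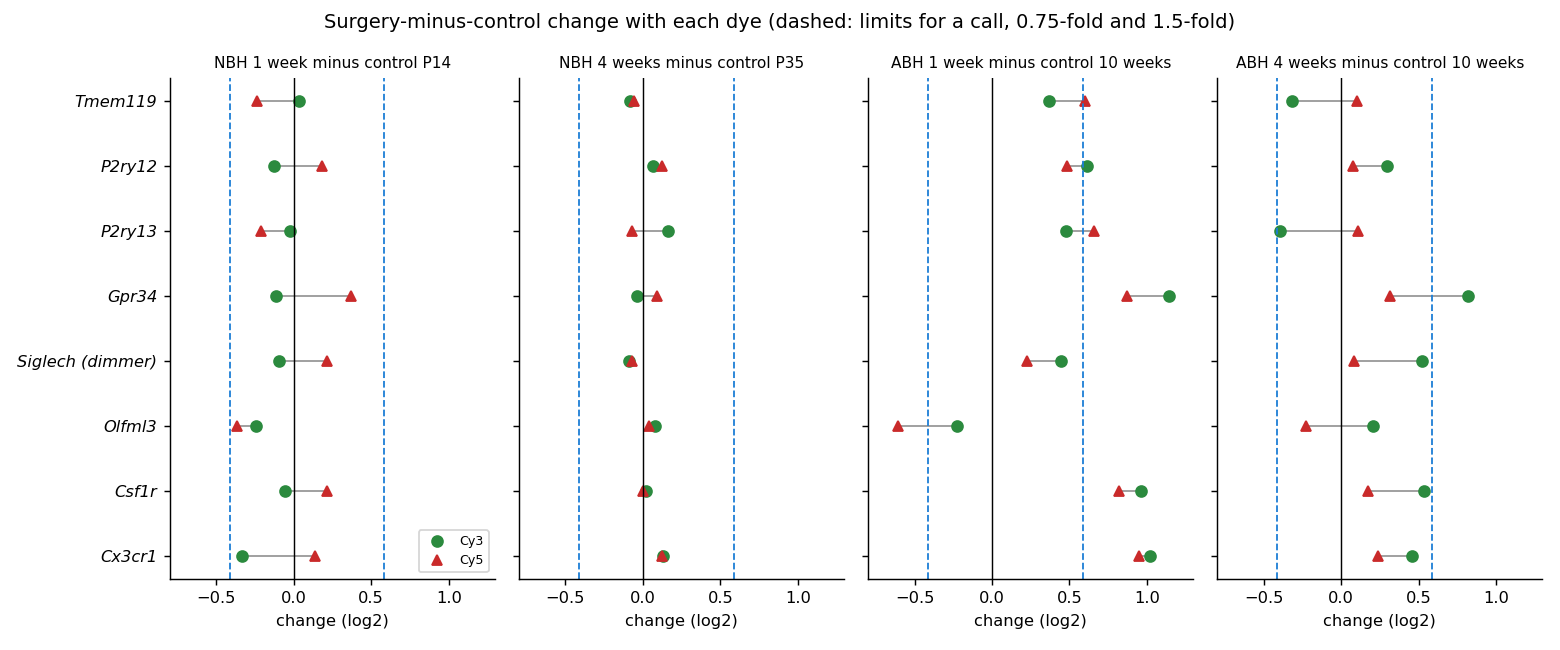
Change of each gene (log2, surgery minus control) in the 4 comparisons, with Cy3 as circles and Cy5 as triangles joined by a line; dashed lines mark the limits of 0.75-fold and 1.5-fold, and Siglech is shown at its dimmer probe. In ABH at 1 week both dyes of Gpr34, Csf1r and Cx3cr1 lie beyond the upper limit, while in NBH at 1 week the dyes of most genes lie on either side of 0.

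Olfml3 gave opposite directions at its 2 probes. The brightest probe had 3.85 with Cy3 and 4.03 with Cy5 in the 10-week control and 3.62 and 3.42 in ABH at 1 week, a change of -0.42 ± 0.27, which only Cy5 carried past the lower limit. The dimmer probe had 0.66 and 0.60 in the control and 1.99 and 1.97 after surgery, 2.56-fold higher and called. Both probes name the same transcript, neither was saturated, and their levels over the 8 pools correlated with r = 0.40. No direction of Olfml3 in ABH at 1 week can be given apart from the probe. Of the 12 probes without saturation 11 were above the control with both dyes in that comparison, and 6 probes of 4 genes were called higher.

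**Figure D3:**
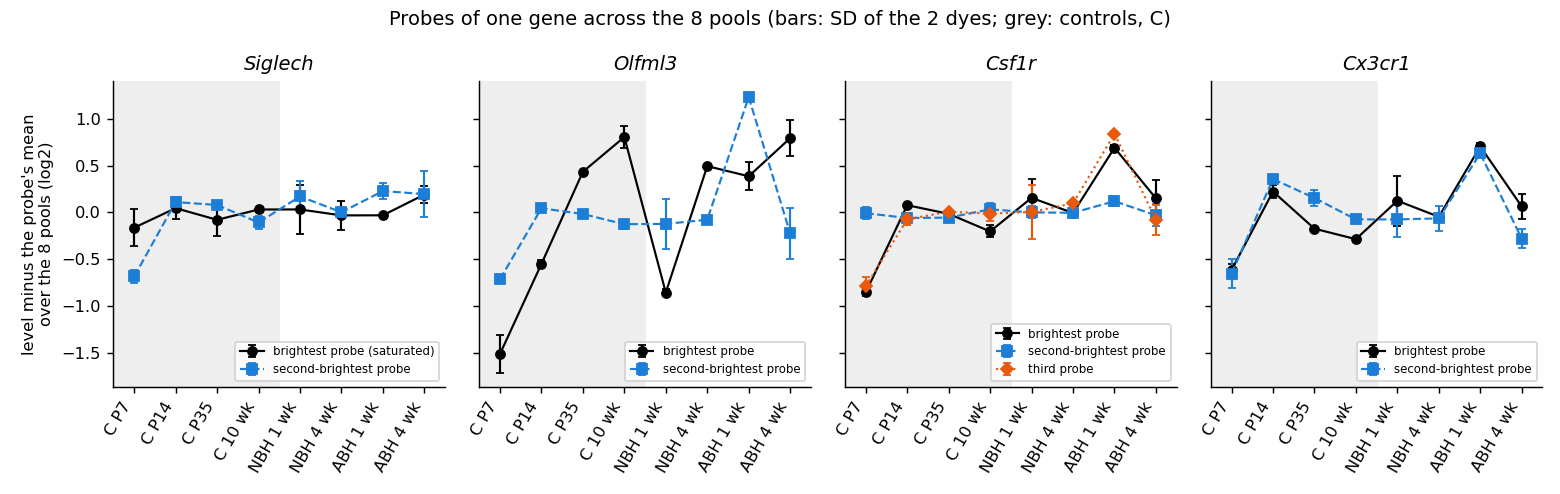
Level of each probe minus its own mean over the 8 pools (log2; bars, SD of the 2 dyes) for the 4 genes with more than 1 probe; the grey area holds the control pools. The 2 Olfml3 probes separate after P14 and go opposite ways in ABH at 1 week, the second-brightest Csf1r probe is flat, and both Cx3cr1 probes have their highest level in ABH at 1 week.

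By 4 weeks after adult surgery the values were nearer to the control again. None of the 7 was called in ABH at 4 weeks, where 0.801% of 15986 genes were called higher and 0.694% lower. A call needs both dyes, and the changes of all genes correlated between them with r = 0.29 in this comparison. The median change was 0.19 against 0.05 for all genes, and 4 of the 7 were above the control with both dyes, as 37.0% of all genes were. Gpr34 was farthest, at 0.57 ± 0.35, with 0.74 with Cy3 and 0.46 with Cy5 against -0.08 and 0.15. Csf1r gave 0.35 ± 0.26 and Cx3cr1 0.35 ± 0.15. Tmem119 and P2ry13 gave -0.11 ± 0.30 and -0.14 ± 0.35 with the dyes opposed. The dimmer probes did not share the higher values of Csf1r and Cx3cr1 in this pool. The dimmer Cx3cr1 probe gave -0.20 ± 0.14 and was below the control with both dyes, and the other Csf1r probes gave -0.06 ± 0.18 and -0.07 ± 0.23.

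Most probes shared the highest and the lowest of the 8 pools. Of the 12 probes without saturation 10 had their highest level in ABH at 1 week and 11 their lowest at P7. Neighbors in the order were taken as apart when both dyes gave the same sign and the mean difference was over the SD of the 2 dye differences. ABH at 1 week was apart from the next pool for Tmem119 by 0.41, for Gpr34 by 0.44, for Csf1r by 0.53 and for Cx3cr1 by 0.48, and for P2ry13 by only 0.04. For the dimmer Siglech probe it was not apart from ABH at 4 weeks. P2ry12 was highest in NBH at 1 week, not apart from the P14 control, and ABH at 1 week came next, 0.27 below P14. Olfml3 at its brightest probe was highest in the 10-week control, not apart from ABH at 4 weeks. The last place of P7 was apart from the next pool for every one of these 8 probes.
As a description over the 8 pools, the levels of the 6 genes other than Siglech and Olfml3 correlated pair by pair with r between 0.73 and 0.96 over 15 pairs, highest for Gpr34 with Cx3cr1. Olfml3 at its brightest probe correlated with those 6 at 0.09 to 0.68, and the dimmer Siglech probe at 0.81 to 0.93. All pairs share the same 16 arrays. Of 13874 other genes above background and not saturated on all arrays, the 10 most like the mean profile of 7 of the genes were Vsir, Itm2b, Crispld2, Cln6, Fxyd1, Cd72, Gm10790, Slc25a35, Il10ra and Btbd17, with r between 0.97 and 0.99. Of these, Cd72 had the widest range over the pools, 3.34, and Cln6 the narrowest, 0.63. In ABH at 1 week Vsir, Crispld2, Fxyd1, Cd72, Gm10790 and Il10ra were called higher, while Itm2b, Cln6, Slc25a35 and Btbd17 were not. Of all genes 6.16% were called higher there. The mean profile was itself highest in that pool, at 0.55, so the choice of these genes favored a high value there.

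Other genes listed for resting microglia were compared in the same way. Between P7 and P14 8 of the 18 compared were called higher and 1 lower, with a median of 0.55, where all 7 of the homeostatic genes compared were called. In ABH at 1 week 8 of the 19 compared were called higher and none lower, with a median of 0.55. The largest were Lag3, an inhibitory receptor, at 1.74 ± 0.19, and Fcrls, a microglial Fc receptor-like protein, at 1.60 ± 0.04. Several genes of the list, such as Sparc and Bin1, are also expressed by other brain cells. Bin1 gave -0.03, and Sparc was saturated on both arrays of this pool. None of the list was called in NBH at 1 week, NBH at 4 weeks or ABH at 4 weeks, with medians of 0.05, 0.03 and 0.13.
Among the ligands and partners of the 8 genes, 6 of 11 were called higher in ABH at 1 week. They were led by Tyrobp, the signaling adaptor of many microglial receptors, at 2.37 ± 0.08, Tgfb1 at 1.11 ± 0.41 and the receptor Tgfbr2 at 1.07 ± 0.18. The 2 ligands of Csf1r parted, with Csf1 at 0.95 and Il34, which neurons make, at -0.13. Entpd1, which breaks down ATP and ADP, was called higher at 0.71. Nt5e, which makes adenosine from AMP, was the one gene of the list called in another surgery comparison, lower in NBH at 4 weeks at -0.51 ± 0.07.
Of the transcription factors, 4 of 10 were called higher in ABH at 1 week. Irf8 gave 1.69 ± 0.09, Runx1 1.18 ± 0.04 and Cebpa 1.16 ± 0.13. Sall1, a factor of resident microglia, gave 0.52 and was not called. Spi1, which encodes PU.1, was not called either, and it was well above background with 1 of the 2 dyes in the 10-week control. None of the list was called in the other 3 surgery comparisons.

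General myeloid genes changed by more than the 8 in ABH at 1 week. Of 17 pan-myeloid genes 14 were called higher, with a median of 1.88, led by Tyrobp, by Cyba, a subunit of the phagocyte oxidase, at 2.33 ± 0.06, and by the complement component C1qa at 2.11 ± 0.02. Their summed level was 288 in ABH at 1 week and between 92.8 and 140.4 in the other 7 pools. Genes of activated microglia were called higher in 16 of 17, with a median of 1.80, and Gpnmb, Spp1 and Lgals3 reached 127-fold, 84.9-fold and 66.6-fold. The 8 homeostatic genes thus had a median change of 0.57 in the same arrays in which the general and activation lists had medians over 1.5.
Markers of other macrophages and of leukocytes were higher in that pool as well. Of 11 border macrophage genes 9 were called higher, with Ms4a7, Folr2 and F13a1 first at 4.00, 3.50 and 2.71, and the summed level of the list was 16.9 against 3.60 to 5.20 in the other 7 pools. Of 11 monocyte and neutrophil genes 7 were called higher and 1, Plac8, lower, with S100a8 at 3.09 and a summed level of 18.8 against 6.52 to 14.3. Ccr2, a monocyte gene of the list, was not above background with either dye in 6 of the other 7 pools. The remaining pool was the 10-week control, the control of this comparison, where Ccr2 was above background with at least 1 dye. All 11 genes of the list were above background in ABH at 1 week. Csf1r and Cx3cr1 are also expressed by monocytes and border macrophages. The part of such cells in the values of these or of the other homeostatic genes was not tested. Of the other genes compared, Gpr34 was 2.01-fold higher and called. Tmem119, P2ry12 and P2ry13 were 1.40-fold, 1.46-fold and 1.48-fold higher and not called, each past 1.5-fold with 1 dye only. The Olfml3 probes went opposite ways.
Plasmacytoid dendritic cells, which also carry Siglech, had 2 of 8 markers called higher, the interferon-inducible genes Bst2 and Irf7, and 1, Ccr9, lower. Other tissue moved too: 5 of 8 meningeal genes were called higher, led by Col1a1 at 4.71, as were 3 of 5 blood genes and 2 of 8 astrocyte genes, Gfap at 3.03 and Aqp4 at 0.63. None of 8 neuronal genes was called, with a median of -0.20, and none of 8 endothelial genes. Of 8 pericyte genes Anpep was called higher, and of 7 oligodendrocyte genes Ermn was called lower. The summed choroid plexus level of 1.79 lay within the range of the controls, while of 8 choroid plexus genes compared 2 were called higher and 2 lower.

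**Figure D4:**
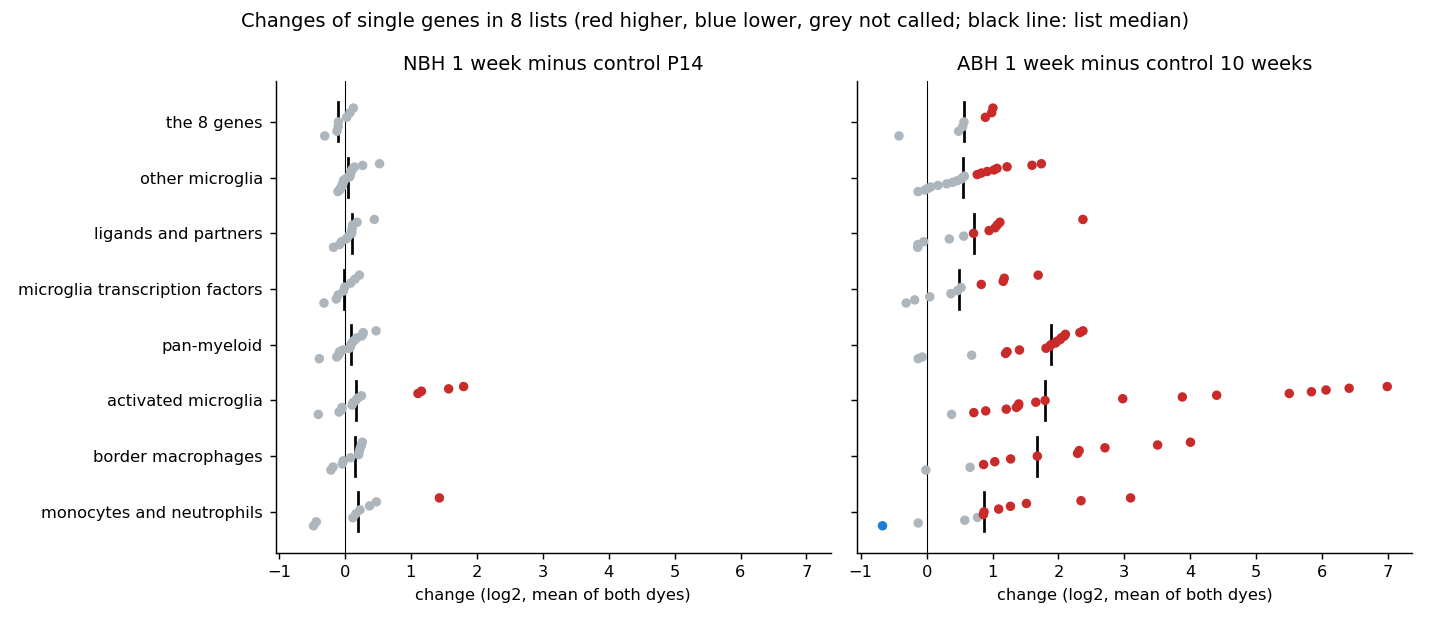
Change of single genes (log2, mean of both dyes) in the 8 genes and in 7 other lists, in NBH at 1 week and ABH at 1 week; each point is a gene at its brightest probe, red where called higher, blue where called lower and grey where not called, and the black line is the list median. In ABH at 1 week the median of the 8 genes, 0.57 over the 7 compared, lies beside that of the other microglia genes, 0.55, and below that of the pan-myeloid genes, 1.88.

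In the pools where the homeostatic genes were not called, a few activation genes were. In NBH at 1 week 4 of 13 were called higher. Gpnmb was at least 3.48-fold and Spp1 at least 2.98-fold higher, each well above background in the P14 control with 1 of the 2 dyes. Lilrb4a, well above background there with neither, was at least 2.24-fold higher. The 4th was Lgals3. No pan-myeloid gene of 17 and no border macrophage gene of 10 was called there, and their medians were 0.09 and 0.15. In NBH at 4 weeks Gpnmb was called, 1.92-fold higher, of 15 activation genes. In ABH at 4 weeks 5 of 17 were called higher, with Ccl3 at least 3.64-fold, Cst7 at least 3.34-fold and Itgax at least 1.69-fold, all 3 not well above background in the 10-week control, while none of 16 pan-myeloid genes was. All 3 of these pools had the choroid plexus genes far above the controls, with Ttr, the carrier of thyroid hormone in cerebrospinal fluid, 111-fold, 32.9-fold and 63.5-fold higher, and the part of that tissue in these values was not tested.

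Set side by side at the brightest probes, the changes at 1 week were higher after adult than after neonatal surgery for 6 of the 7 genes with both dyes. The share of all genes for which this held was not computed, at 1 week or at 4 weeks. The median change of all genes at 1 week was -0.05 in ABH and 0.07 in NBH. The differences of the changes were 1.09 ± 0.39 for Cx3cr1, 0.88 ± 0.53 for Gpr34, 0.81 ± 0.29 for Csf1r, 0.69 ± 0.25 for P2ry13, 0.59 ± 0.36 for Tmem119 and 0.52 ± 0.31 for P2ry12, and -0.11 ± 0.18 for Olfml3. At the dimmer Olfml3 probe the difference was 1.52 ± 0.29, and at the dimmer Cx3cr1 probe 1.13 ± 0.24. For Csf1r it was 0.77 ± 0.45 at the dimmest probe, and 0.03 ± 0.21 at the second-brightest with the dyes opposed. The dimmer Siglech probe gave 0.28 ± 0.38. At 4 weeks the differences at the brightest probes were between -0.19 and 0.54, and only Gpr34, Csf1r and Cx3cr1 were higher after adult surgery with both dyes. The dimmer probes did not share the higher values of Csf1r, at -0.12 ± 0.23 and -0.16 ± 0.20, or of Cx3cr1, at 0.01 ± 0.36. The dimmer Siglech probe gave 0.38 ± 0.33, higher with both dyes, and the dimmer Olfml3 probe -0.04 ± 0.30. These differences were not tested, since each group was 1 pool, and age at surgery and pool cannot be told apart.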

How the data were processed

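The authors scanned 8 x 60 K Agilent arrays with Feature Extraction 11.0.1.1 in a 2-channel protocol, with 1 labeled RNA pool on each array. The deposited intensity values are background-subtracted and detrended by that software, with no dye normalization and no scaling between arrays. The deposited value table holds the same values rounded. The study's methods instead describe a dye normalization by locally weighted regression (LOWESS). Control spots and outlier spots were left out, spots of 1 probe were averaged, and each array was divided by its 75th percentile, floored at its lowest signal well above background and set on the log2 scale. Genes were named through RefSeq accessions (GRCm38.p6, names only), and each was taken at its brightest probe. A gene entered a comparison if 1 of the pools or both had it well above background with each dye, and not if both pools had it saturated with a dye. Lists were described at no more than 3 genes called in each direction with the largest change, with others named after their values were seen, and 10 genes by likeness of pattern. Some genes of the lists are counted but not reported here by name. The 8 genes and the lists were chosen with earlier results of these data known. In all, 12 alternatives were set with the design, and 2 were added after seeing the data: the dimmer Siglech probe, and the second-brightest probe of each gene that has one. The calls were checked on simulated data. Tools were Python 3.11.15, pandas 2.3.3, numpy 2.4.6 and, for normexp background correction with an offset of 50, limma 3.58.1 in R 4.3.3. The number of arrays limits the precision.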

Additional observations from a re-analysis of the deposited data

Results flagged for a closer look

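P2ry13 was 0.69 higher on the log2 scale in its change after adult than after neonatal surgery at 1 week. It drew attention because its 2 arrays were both above the control in ABH at 1 week, at 0.48 with Cy3 and 0.66 with Cy5, and both below it in NBH at 1 week, at -0.03 and -0.21. Neither change was called, the 2 arrays of a pool are the same RNA, and the difference was not tested.

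The dimmer Cx3cr1 probe stood out in the same way at 1 week, with a difference of 1.13 ± 0.24 between the changes after adult and neonatal surgery. It was above the control with both dyes in ABH, at 0.68 and 0.73, and below it with both in NBH, at -0.28 and -0.58. At 4 weeks the dimmer Siglech probe did so, with a difference of 0.38 ± 0.33, from 0.52 and 0.08 in ABH and -0.09 and -0.07 in NBH. Neither difference was tested. All probes of the 8 genes that could be compared were looked at.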

How the results depend on the processing

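The absence of calls in NBH at 1 week, NBH at 4 weeks and ABH at 4 weeks held under every alternative that was run, except that Gpr34 was called higher in ABH at 4 weeks with Cy3 alone, so that single dyes gave 0 to 1 calls there. With Cy3 alone 5.84% of all genes were called higher in that comparison. In ABH at 1 week the count of genes called higher was 6 with median scaling, 0 with 2-fold limits and 4 to 5 with single dyes, which also gave 0 to 1 called lower, Olfml3 with Cy5. Of all genes, 12.9% were called higher with median scaling, 3.23% with 2-fold limits and 7.85% to 7.88% with single dyes. Single dyes called 12.1% to 15.8% of all genes lower. Gpr34 and Cx3cr1 lost the call only at 2-fold limits, and Csf1r also with the mean of all bright probes, which leaves 2 genes called, and with the second-brightest probe. The median change in ABH at 1 week was 0.53 with normexp, 0.95 with median scaling, 0.63 with the authors' value table without scaling, 0.49 with the P35 control and 0.61 to 0.66 with single dyes. The median in NBH at 1 week was -0.29 with the value table and -0.11 to 0.14 with single dyes, the latter with Cy5. That in NBH at 4 weeks was 0.0046 with normexp, 0.088 with median scaling, 0.14 with the 10-week control and 0.014 with the mean of bright probes, and it turned to -0.18 with the value table and -0.017 with the second-brightest probes. That in ABH at 4 weeks was 0.023 with the value table and turned to -0.080 with the second-brightest probes. The cause was not tested. Over all genes in ABH at 1 week, 60.1% of the calls were lower, and 21.7% with median scaling, 35.6% with quantile normalization. With the value table, which is not scaled, the share lower moved from 53.4% to 87.7% in NBH at 1 week, from 81.9% to 97.9% in NBH at 4 weeks and from 46.4% to 90.9% in ABH at 4 weeks. No paired analysis was possible because each group was 1 pool and no test was made, and the changes were already taken within each dye. One pool a group, saturation of the brightest Siglech probe and the position of the pools on the chip limit all of these values.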
